A study of Mus musculus with 42 samples.

Results

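The flow response that remained after macrophages were depleted was examined in 4 of the 42 samples of the series. These were the 2 libraries of low-flow carotid intima from mice given clodronate liposomes and the 2 libraries of high-flow carotid intima from mice given PBS liposomes, all taken 48 hr after surgery and chosen by their labels alone. Male C57BL/6J mice of 6 to 7 weeks had the left carotid artery partially ligated, which lowers its flow, while the contralateral carotid artery kept a high flow. The liposomes were injected into the tail vein at the time of ligation, and each library was a pool of 3 to 5 arterial flushes, so that 1 library holds the intimal RNA of several mice. No library of a high-flow artery under clodronate was analysed here, and the file headers give the low-flow and the high-flow libraries different sequencing runs. Flow, liposome content and run therefore differ together between the sides and cannot be told apart in this comparison.

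The endothelium senses the friction of flowing blood. Steady laminar flow keeps up the transcription factors Klf2 and Klf4 and with them the nitric oxide synthase Nos3, and these genes fall where flow is low or disturbed. Low flow also brings monocytes, neutrophils and other leukocytes to the arterial wall. Clodronate liposomes are eaten by phagocytes and kill them, in the blood and organs as well as in the artery, whereas PBS liposomes carry no toxic content.

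The clodronate libraries held 14945496 and 14481614 counts on genes and the high-flow libraries 13850978 and 14084701, and between 13974 and 14296 genes had a count in each. FPKM, the counts of a gene scaled by its effective length and by the total of the library, are used for levels. All 12 endothelial marker genes were measured, and together they took 1.06% and 0.697% of the counts in clodronate libraries 1 and 2 and 1.38% and 1.05% in high-flow libraries 1 and 2. Of the 12, 7 had a positive log2 fold-change and the median was 0.12. edgeR called 1 higher, Emcn, and 1 lower, Tek, where 4.61% of all genes were higher and 2.8% lower. Smooth muscle markers took 0.244% and 0.270% against 0.0485% and 0.0924%. Of these 8 genes, 5 had a positive log2 fold-change, the lowest value was −1.33 and the median was 0.35. The rise of the summed share was therefore not common to all 8 markers. The threshold was passed by 1 of them, where 4.61% of all genes were higher, and this was Tagln (transgelin). Its 452 and 384 FPKM in the clodronate libraries lay above 60.7 and 94.6 FPKM at high flow. The part of smooth muscle RNA in the results below was not tested. Since the samples are bulk RNA, fewer cells of a type and less RNA per cell cannot be told apart.

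Macrophage markers at low flow with clodronate took a share of the counts above that of both PBS liposome high-flow libraries and below that of both low-flow libraries with PBS liposomes. The 14 markers took 0.0244% and 0.0238% of the counts in the clodronate libraries, 0.0115% and 0.0214% at high flow, and 0.134% and 0.223% in the 2 low-flow libraries with PBS liposomes. In IgG high-flow libraries 1 and 2 they took 0.00757% and 0.0278%, the second above both clodronate libraries. No marker was at 0 in any of the 6 liposome libraries. Against high flow, edgeR called 0 of the 14 markers with clodronate, where their median log2 fold-change was 0.19, 1 marker passed without adjustment for multiple testing (unadjusted p below 0.05) and DESeq2 found 0, while edgeR called 9 of 14, all higher, with PBS liposomes, where the median was 2.59. Of all genes tested, 4.61% were called higher with clodronate and 19.6% with PBS liposomes. Both comparisons used the same high-flow libraries. Lyz2, the lysozyme of myeloid cells, had 194 and 206 FPKM with clodronate, 73.6 and 157 FPKM at high flow and 1179 and 1972 FPKM at low flow with PBS liposomes. Cd68, a lysosomal protein of macrophages, had 6.43 and 7.19 FPKM with clodronate and 2.84 and 3.29 FPKM at high flow. The clodronate libraries lay above both high-flow libraries for this gene, and the log2 difference of 1.16, with a 95% interval from 0.22 to 2.10, had an adjusted p of 0.121 in edgeR. Emr1, which encodes the macrophage antigen F4/80, had 0.561 and 0.846 FPKM against 0.396 and 0.984 FPKM, and its interval ran from −2.02 to 2.10. Itgam, the integrin alpha M of myeloid cells, had 0.767 and 1.51 FPKM with clodronate against 0.827 and 0.845 FPKM. Ptprc, which marks all leukocytes, had 2.29 and 2.63 FPKM against 1.40 and 2.81 FPKM, and the 2 groups overlapped for both genes.

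**Figure D1:**
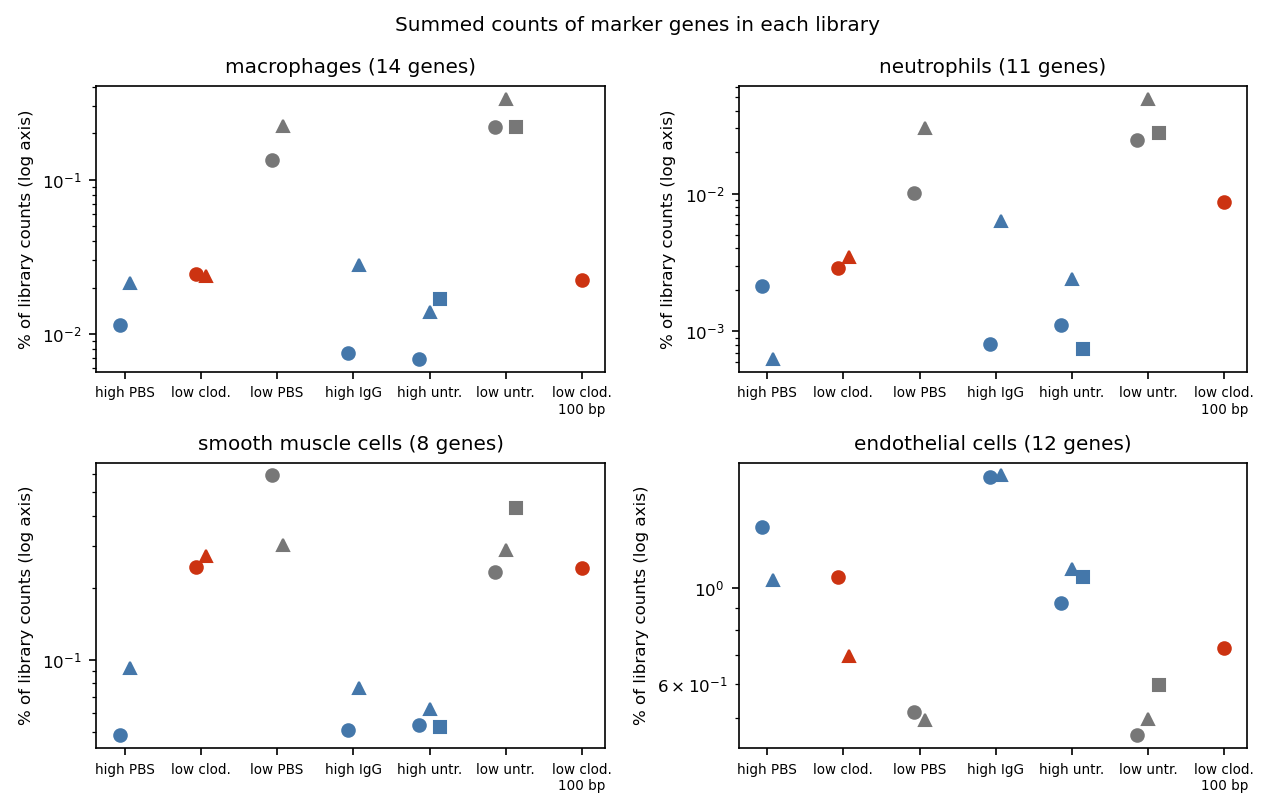
Share of all gene counts taken by 4 lists of marker genes in each library, in percent on a log axis, with 1 point per library (circle, triangle and square for replicates 1 and 2 or pools a, b and c, clod. for clodronate and untr. for untreated). Macrophage markers took 0.0244% and 0.0238% in the 2 clodronate libraries and 0.134% and 0.223% in the low-flow libraries with PBS liposomes.

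With few macrophage transcripts present, low-flow and high-flow intima still differed in 993 of the 13401 genes tested by edgeR, which is 7.41%. Of these, 618 genes (4.61% of those tested) were higher and 375 (2.8%) lower at low flow with clodronate, and 3360 genes passed an unadjusted p of 0.05. The 2 groups did not overlap for any of the 993, and did not overlap for 51.3% of all genes tested. The median log2 fold-change was 1.57 over the higher genes and −1.23 over the lower ones, against 0.05 over all genes tested. The number of called genes depended on single libraries. It was 76 without high-flow library 1, 523 without high-flow library 2, 1724 without clodronate library 1 and 192 without clodronate library 2. A lone library is assumed in these fits to vary like the other groups. When only these 4 libraries were fitted, edgeR called 0 genes, 2226 before adjustment of p. Such a fit called 5293 between low and high flow with PBS liposomes. On the 4 libraries of this comparison DESeq2 called 1020. Of the 55 named genes that were called here, 3 kept the call without high-flow library 1 (Dhh, Tek and Treml4), 27 without high-flow library 2, 52 without clodronate library 1 and 7 without clodronate library 2 (Cd247, Ctgf, Dhh, Edn1, Hmox1, Spp1 and Tek).

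Of 15 genes of laminar flow in the list, 14 were tested, 8 were lower at low flow with clodronate, where 2.8% of all genes were, none was higher and 6 did not pass, and the median log2 fold-change was −1.61. The count was 2 without high-flow library 1 or without clodronate library 2, 9 with the IgG reference and 7 with the single 100 bp clodronate library, where 12.6% and 8.35% of all genes were lower. Klf2 (chromosome 8, 74842932 to 74845555 in mm9) had 56.3 and 40.7 FPKM in clodronate libraries 1 and 2 and 488 and 357 FPKM in high-flow libraries 1 and 2. Both clodronate libraries were far below both high-flow libraries, and the log2 fold-change was −3.12 ± 0.54 (SE, n = 2 per group, edgeR adjusted p = 0.00806), 8.72-fold lower. Klf4, its paralog, had 8.49 and 2.98 FPKM against 27.7 and 19.6 FPKM, so that it fell by 2.05 on the log2 scale (SE 0.56). The adjusted p in edgeR was 0.0498, just inside the threshold, and became 0.0502 with the size factors of DESeq2.

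The enzyme Nos3, which makes nitric oxide in the endothelium, had 144 and 150 FPKM against 504 and 336 FPKM, and fell by 1.51 on the log2 scale (SE 0.26, edgeR adjusted p = 0.00824). Dhh, a hedgehog ligand, had the most even values, 56.5 and 59.1 FPKM with clodronate and 215 and 221 FPKM at high flow. Its log2 fold-change was −1.91 ± 0.19 (edgeR adjusted p = 0.000925), and Dhh stayed past the threshold without each of the 4 libraries in turn. Tek, the receptor of the angiopoietins, had 108 and 72.7 FPKM against 358 and 268 FPKM (log2 fold-change −1.80 ± 0.26, edgeR adjusted p = 0.00304), and was likewise called without each library in turn. Without high-flow library 1, the adjusted p of Klf2 was 0.0712 and that of Nos3 0.115, and without clodronate library 2 they were 0.0795 and 0.0535. The 3 remaining lowered genes of the list were chosen here after their values were seen. Klk10, a secreted kallikrein (chromosome 7, 51036424 to 51040780), had 67.0 and 31.2 FPKM against 698 and 546 FPKM and was 12.7-fold lower. Slc9a3r2, a scaffold protein, had 283 and 228 FPKM against 994 and 874 FPKM, and Ass1, which serves the synthesis of arginine, 7.10 and 7.29 FPKM against 27.0 and 20.3 FPKM.

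The promoters of Klf2 and Klk10, the genes of the list with the largest log2 differences, are printed because both fell together. They run from 250 bases before to 50 after the start of the gene and come from RefSeq on GRCm38.p6, at chr8:72318812-72319111 and chr7:43780804-43781103, both on the plus strand. Capitals mark the MEF2 element (CTA, any 4 bases, then TAG), bound by MEF2 factors, and the CACCC box CCACCC, bound by KLF factors, searched on both strands, so that the second can read GGGTGG.
Klf2: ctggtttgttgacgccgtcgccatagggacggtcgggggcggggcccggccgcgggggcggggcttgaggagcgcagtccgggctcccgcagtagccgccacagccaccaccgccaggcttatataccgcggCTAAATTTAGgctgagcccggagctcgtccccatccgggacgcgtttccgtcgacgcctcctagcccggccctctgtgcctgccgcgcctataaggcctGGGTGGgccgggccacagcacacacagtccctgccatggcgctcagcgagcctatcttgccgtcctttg
Klk10: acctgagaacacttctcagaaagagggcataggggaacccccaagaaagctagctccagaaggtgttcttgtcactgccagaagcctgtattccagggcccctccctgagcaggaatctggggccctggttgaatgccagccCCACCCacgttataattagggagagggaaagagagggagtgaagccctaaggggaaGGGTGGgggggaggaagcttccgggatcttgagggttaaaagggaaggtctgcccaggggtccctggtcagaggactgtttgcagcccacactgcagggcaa
The MEF2 motif of Klf2 read CTAAATTTAG and began 118 bases before the start, and 3.69% of the 32851 promoters in the table held the motif. One or more CACCC boxes were found in 31.5% of all promoters, and in those of Klf2, Klk10, Ass1, Dhh and Slc9a3r2, 5 of the 7 called genes of the list with an entry. A match of letters is a description and not a site in use.

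**Figure D2:**
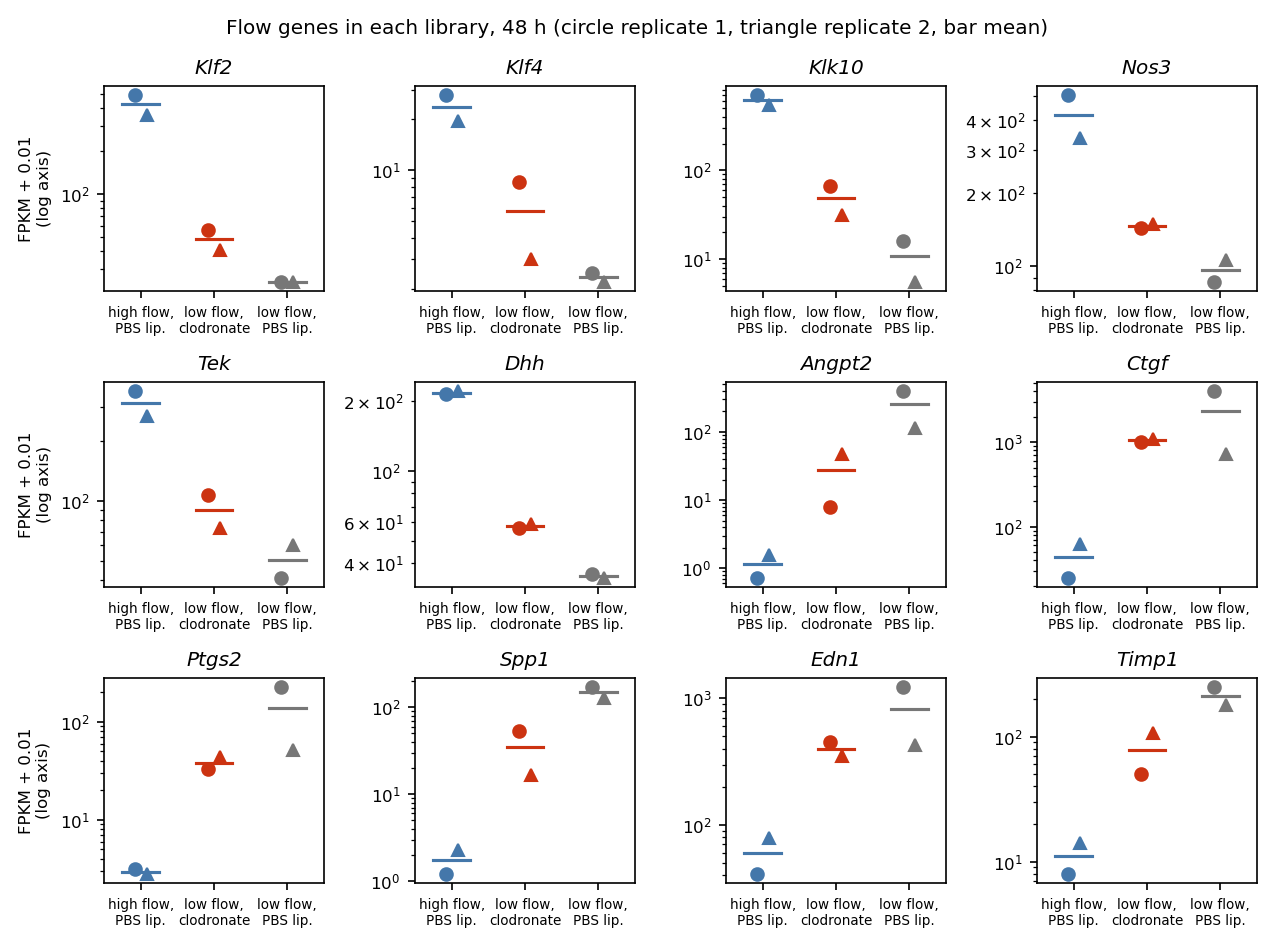
FPKM plus 0.01 of 12 flow-regulated genes in each library, on log axes, with a circle for replicate 1, a triangle for replicate 2 and a bar for the mean of 2. For each gene both clodronate libraries lie on the low-flow side of both high-flow libraries, such as 56.3 and 40.7 FPKM against 488 and 357 FPKM for Klf2. This follows from the choice, since all 12 are called genes and no called gene had overlapping groups.

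Other genes fell further than Klf2. Serpina1b, which encodes an alpha-1-antitrypsin, had 0.228 and 0.0717 FPKM with clodronate and 32.5 and 26.0 FPKM at high flow, 212-fold lower (log2 fold-change −7.73 ± 1.28, edgeR adjusted p = 0.00646). It lies on chromosome 12 of mm9 from 104966366 to 104976368, beside Serpina1d, which had 2.22 and 0.568 FPKM against 63.3 and 48.3 FPKM. These paralogs are nearly alike, so the split of reads between them is uncertain. Vipr1, a receptor of vasoactive intestinal peptide, had 0.436 and 0.145 FPKM against 10.5 and 4.49 FPKM. Adra2c, an adrenergic receptor, had 0.701 and 0.249 FPKM against 13.4 and 6.09 FPKM. Both receptors were nearly silent in each clodronate library and present in each high-flow library. The receptor tyrosine kinase Ret had 0.00930 and 0.00959 FPKM against 3.99 and 0.533 FPKM, and its high-flow libraries differed from each other by more than those of the other genes in this paragraph. Pla2g4f, a phospholipase, Cyp3a13, a cytochrome P450, Nxnl2 and Prrt4 were 26.2-, 28.2-, 19.0- and 18.2-fold lower. Among genes of the Notch pathway and of arterial or venous identity, the Notch ligand Dll1 had 15.2 and 8.43 FPKM against 70.5 and 46.5 FPKM, and Ephb4, an ephrin receptor known from veins, 24.8 and 23.5 FPKM against 61.3 and 47.6 FPKM. Of the 18 genes of this list tested, 2 were lower and 1, the connexin Gja4, was higher, with a median of −0.48, where 2.8% of all genes were lower and 4.61% higher. DESeq2 called 5 lower and 1 higher. The fit with the IgG reference called 9 lower and 3 higher, where 12.6% and 15.7% of all genes were. The single 100 bp clodronate library gave a list median of −0.15. The junctional adhesion molecule Jam2 had 71.8 and 42.2 FPKM against 194 and 167 FPKM.

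Among the genes raised were Angpt2 and Pdgfb of vessel growth, the vasoactive Edn1 and Ptgs2, and Ctgf, Spp1 and Timp1. Angpt2, which opposes Angpt1 at the receptor Tek (chromosome 8, 18690263 to 18741562 in mm9), had 7.98 and 47.2 FPKM in clodronate libraries 1 and 2 and 0.712 and 1.58 FPKM at high flow. The groups did not overlap, and the log2 fold-change was 4.61 ± 1.00 (edgeR adjusted p = 0.0198), 24.4-fold higher. In the low-flow libraries with PBS liposomes Angpt2 had 395 and 113 FPKM. The difference from clodronate, a log2 value of −3.30, had an adjusted p of 0.177 in edgeR. Ctgf, a matricellular protein and target of YAP and TAZ, had 1011 and 1087 FPKM against 24.7 and 62.4 FPKM (log2 fold-change 4.60 ± 0.87, edgeR adjusted p = 0.0117), and both clodronate libraries were close to each other. Of 10 YAP and TAZ genes tested, 2 were higher, the other being the transcription factor Tead1 with 2.16 and 2.21 FPKM against 0.965 and 0.899 FPKM, and the median was 0.24, where 4.61% of all genes were higher. With the IgG reference 2 were higher and 2 lower, where 15.7% and 12.6% of all genes were. With the single 100 bp clodronate library the list median was 0.85. Ptgs2, the inducible cyclooxygenase, had 33.0 and 43.8 FPKM against 3.12 and 2.79 FPKM. Edn1, the precursor of the constrictor endothelin-1, had 449 and 353 FPKM against 40.9 and 78.2 FPKM. With Nos3 lower, 3 of the 14 vasoactive genes tested had passed, 2 higher and 1 lower, where 4.61% of all genes were higher and 2.8% lower. With the IgG reference 3 were higher and 3 lower, where 15.7% and 12.6% of all genes were. Spp1, which encodes osteopontin, had 53.6 and 16.4 FPKM against 1.2 and 2.30 FPKM, and Timp1, an inhibitor of matrix proteases, 49.97 and 108 FPKM against 7.97 and 14 FPKM. Timp1 was the 1 called of 13 matrix proteases and inhibitors, whose median was −0.31, where 4.61% of all genes were higher.

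Among 17 tip cell and angiogenic genes, 2 were higher, none was lower and the median was 0.57, where 4.61% of all genes were higher. Against the IgG high-flow libraries 6 were higher and 1 lower, where 15.7% and 12.6% of all genes were. With the single 100 bp clodronate library the list median was 1.48. Beside Angpt2, the gene called against the PBS liposome libraries was Pdgfb, the growth factor that draws in mural cells. It had 32.3 and 39.8 FPKM against 12.6 and 11.8 FPKM. Esm1 and Apln, marker genes of tip cells chosen here after their values were seen, split the clodronate libraries. Esm1 had 0 and 83.6 FPKM in clodronate libraries 1 and 2, with 0.0737 and 0.978 FPKM at high flow and 372 and 109 FPKM at low flow with PBS liposomes. Apln had 0.0445 and 14.8 FPKM in the clodronate libraries, with 0 and 0.0945 FPKM at high flow. Clodronate library 1 was thus within or near the high-flow values and library 2 nearer to those of low flow with PBS liposomes for both genes, whose adjusted p was 0.181 and 0.0921 in edgeR. Further raised genes of known function were Hmox1, heme oxygenase 1 (25.4 and 35.9 FPKM against 5.15 and 5.46 FPKM), Procr, the endothelial protein C receptor (582 and 1888 FPKM against 238 and 385 FPKM), and the sialomucin Emcn (282 and 510 FPKM against 72.3 and 113 FPKM). The histone gene Hist1h4d had 19.7 and 34.1 FPKM against 0.850 and 0.418 FPKM, but histone genes are a family of near-identical copies and its reads are uncertain. Nme4, a nucleoside diphosphate kinase of mitochondria, had 0.837 and 6.72 FPKM against 0.100 and 0.197 FPKM.

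Single leukocyte and chemokine genes were also higher with clodronate than at high flow. S100a8, a calcium-binding protein of neutrophils and monocytes, had 20.7 and 27.5 FPKM against 0.871 and 1.14 FPKM, with 59.0 and 159 FPKM at low flow with PBS liposomes. Its log2 fold-change from high flow was 4.55 ± 1.15 (edgeR adjusted p = 0.0359). It was the called gene among the 10 neutrophil markers tested, whose median was 2.92, and all 11 in the table took together 0.00288% and 0.00345% of the counts with clodronate and 0.00213% and 0.000632% at high flow. In IgG high-flow libraries 1 and 2 they took 0.000806% and 0.00636%, the second above both clodronate libraries, and 0 of the 10 were called by edgeR against that reference, with 1 at an unadjusted p below 0.05. Cxcr2, the chemokine receptor of neutrophils, had 1.02 and 1.45 FPKM against 0.0498 and 0.171 FPKM (log2 fold-change 3.46, SE 1.2, edgeR adjusted p = 0.103). Il1r2, the decoy receptor for interleukin-1, had 1.67 and 2.19 FPKM against 0 and 0.178 FPKM. Ly6c2 of monocytes had 3.99 and 7.09 FPKM against 0.553 and 0.433 FPKM, and was the 1 called gene among 7 monocyte markers. All 4 genes were higher in both clodronate libraries than in both high-flow libraries. Cd247, the zeta chain of the T cell receptor, had 15.8 and 11 FPKM against 2.43 and 4.79 FPKM, and 1 of 7 T cell markers was called. These single calls in the neutrophil, monocyte and T cell lists stand against 4.61% of all genes called higher. Of 17 chemokines tested, 2 were higher, 15 had a positive log2 fold-change and the median was 1.68, where 4.61% of all genes were higher. DESeq2 called 8 of the list and the fit with the IgG reference 10, all higher. With that reference 15.7% of all genes were higher. The single 100 bp clodronate library gave a list median of 1.75. Ccl2, which draws monocytes, had 6.87 and 9.49 FPKM against 0.654 and 2.04 FPKM and was 6.09-fold higher (edgeR adjusted p = 0.0306). Cxcl12, the ligand of Cxcr4, had 135 and 612 FPKM against 51.0 and 76.5 FPKM. The interferon-stimulated genes Bst2 (275 and 325 FPKM against 70.8 and 109 FPKM) and Ifitm3 (1165 and 1146 FPKM against 353 and 506 FPKM) were higher. The other 20 of the 22 tested did not pass and the median was −0.07, where 4.61% of all genes were higher. With the IgG reference 2 were higher and 1, Ifih1, lower, where 15.7% and 12.6% of all genes were. In the single 100 bp clodronate library the log2 fold-change was 1.03 for Bst2 and 0.29 for Ifitm3, and the list median was −0.57.

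Of 12 leukocyte adhesion molecules tested, 1 was lower, Jam2, and none was higher, with a median of 0.20, where 2.8% of all genes were lower and 4.61% higher. DESeq2 and the fit with the IgG reference each called 3 higher and 2 lower. With that reference 15.7% of all genes were higher and 12.6% lower. The single 100 bp clodronate library gave a list median of 0.03. Vcam1 had 1056 and 612 FPKM with clodronate and 548 and 729 FPKM at high flow, and the 95% interval of its log2 difference ran from −0.32 to 1.09. For Icam1, 518 and 307 FPKM stood against 254 and 339 FPKM, with an interval from −0.22 to 1.18. The selectin Sele had 37.4 and 89.0 FPKM against 8.40 and 49.4 FPKM, an interval from −0.74 to 3.05, and Selp had 485 and 536 FPKM against 319 and 377 FPKM, an interval from 0.11 to 1.02. Of these 4 genes, Selp alone had groups that did not overlap, and its adjusted p was 0.121 in edgeR and 0.0465 in DESeq2. Fibronectin, Fn1, had 36.6 and 30.7 FPKM against 42.7 and 21.2 FPKM, with a log2 difference of 0.07 and an interval from −1.02 to 1.17. With the 2 high-flow libraries of IgG-treated mice as the reference this turned to −1.90 (edgeR adjusted p = 0.0200). None of 9 genes of fibronectin and its integrins and none of 13 collagens was called by edgeR, with 3 and 2 at an unadjusted p under 0.05 and 3 and 0 called by DESeq2. Against the IgG high-flow libraries 3 and 5 were lower, where 12.6% of all genes were. Those 5 collagens were Col1a1, Col1a2, Col3a1, Col5a1 and Col14a1. The collagen median was −1.06 against the IgG libraries and 0.16 with the single 100 bp clodronate library. The integrin Itgb1 had 540 and 509 FPKM against 992 and 932 FPKM (edgeR adjusted p = 0.0772). Rbfox2, a splicing regulator, had 2.75 and 5.20 FPKM against 2.74 and 3.11 FPKM, with an interval from −0.27 to 1.19. Of 24 splicing regulators tested 1 was higher, near the 4.61% of all genes, and DESeq2 called 5 higher and 2 lower. The gene called by edgeR was Tra2a, with 11.9 and 15.5 FPKM against 4.97 and 6.37 FPKM, and against the IgG high-flow libraries it turned to −0.23. Of 13 clock genes, 1 was lower, where 2.8% of all genes were, and DESeq2 called 3 lower and the fit with the IgG reference 5, in which the gene called here lost its call. That gene was the repressor Nr1d2 with 45.5 and 29.1 FPKM against 85.6 and 81.8 FPKM.

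Growth genes were raised in part. Of 19 ribosome biogenesis genes tested, 5 were higher and all 19 had a positive log2 fold-change, with a median of 1.22, where 4.61% of all genes were higher. With the IgG reference 13 were higher, where 15.7% of all genes were. The H/ACA proteins Nhp2 and Gar1 had 44.4 and 142 FPKM against 9.23 and 17.5 FPKM and 40.9 and 91.8 FPKM against 9.94 and 16.6 FPKM. The methyltransferase Fbl had 67.1 and 158 FPKM against 20.3 and 33.4 FPKM, and nucleophosmin, Npm1, 223 and 537 FPKM against 99.8 and 116 FPKM. Each of these genes was higher in clodronate library 2 than in clodronate library 1. Without library 2 the list had 0 called genes, without library 1 it had 11, and without high-flow library 1 or 2 it had 0 and 2. Of 20 G1 genes tested, 2 were higher, at a median of 0.94. DESeq2 called 4 higher and 1 lower, and the fit with the IgG reference 3 higher. The single 100 bp clodronate library gave a list median of 0.73. The G1 cyclin Ccnd1 had 32.0 and 129 FPKM against 11.8 and 10.3 FPKM, and its partner Cdk4 161 and 417 FPKM against 88.5 and 126 FPKM. Manf, a protein of the endoplasmic reticulum, was the 1 called gene of 18 unfolded protein response genes (2.92-fold higher, list median 0.25). Of these 18, 7 were higher and 1 lower with the IgG reference, and 3 were higher with DESeq2. The single 100 bp clodronate library gave a list median of 0.02. The glycolytic enzyme Gapdh was the 1 called of 18 glycolysis genes (2.38-fold higher, list median 0.50). The count of glycolysis genes was 7, all higher, with the IgG reference or without clodronate library 1, and 0 with the single 100 bp clodronate library, 2 before adjustment. These shares of the G1, unfolded protein response and glycolysis lists are to be read against the 4.61% of all genes that were called higher.

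The genes raised also held a broad group of protein synthesis and respiration genes, which were chosen by symbol after their values were seen. Of 82 ribosomal protein genes tested, 79 were higher, with a median log2 fold-change of 2.27. Of 76 mitochondrial ribosomal protein genes 35 were higher (median 1.06), and of 81 subunit genes of the respiratory chain and ATP synthase 52 were higher (median 1.31), against 4.61% of all genes. Together they made up 166 of the 618 higher genes, 26.9%. Ribosomal protein genes took 1.31% and 1.88% of the counts with clodronate, 0.415% and 0.501% at high flow and 2.47% and 2.32% at low flow with PBS liposomes. Flow and sequencing run differ together in these libraries. In the comparison of the 100 bp clodronate library with the untreated high-flow pools, which share a run, the calls were 1 of 82, 9 of 76 and 1 of 82 in the higher direction, with medians of 0.89, 0.58 and 0.16, where 9.18% of all genes were higher. Between the untreated low-flow and high-flow pools they were 79 of 81, 24 of 76 and 8 of 80, with medians of 1.65, 0.31 and 0.14, where 23.6% were higher. In the lower direction the calls between these pools were 0, 1 and 7, where 22.6% of all genes were lower. Of the 19 ribosome biogenesis genes, 17 were called in the 100 bp comparison, which has 1 clodronate library. The part of RNA or library quality in the raised growth genes was not tested. Ribosomal protein genes have many near-identical pseudogene copies, so their counts are uncertain.

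Cell cycle genes split the replicates. Mitosis genes, a list of 32, took 0.0183% and 0.306% of the counts in clodronate libraries 1 and 2 and 0.00931% and 0.151% in high-flow libraries 1 and 2. Low-flow libraries 1 and 2 with PBS liposomes held 0.0443% and 0.322%, so that library 2 was higher in each liposome group. In clodronate library 2, 31 of the 32 genes were higher than in library 1, by a median of 4.48 on the scale of log2(CPM + 1), and in high-flow library 2 the median was 4.05. The proliferation marker Mki67 had 0.357 and 10.6 FPKM against 0.153 and 3.87 FPKM, and the groups overlapped. Ube2c, the ubiquitin-conjugating enzyme of mitosis, had 4.42 and 186 FPKM against 1.56 and 49.2 FPKM. Against high flow all 32 genes had a positive log2 fold-change, with a median of 0.96, and edgeR called 0, with 1 at an unadjusted p under 0.05, as did DESeq2. With the IgG reference 3 were called higher, where 15.7% of all genes were. In the untreated pools 31 were higher and 1 lower, and with the single 100 bp clodronate library 30 were higher, at medians of 4.62 and 3.65, where 23.6% and 9.18% of all genes were higher. DNA replication genes took 0.0703% and 0.439% against 0.0614% and 0.109%, and of 28 tested 0 were called by edgeR, with 18 at an unadjusted p under 0.05, and 7, all higher, by DESeq2, with a median of 1.97. Called higher were 22 of the 28 without clodronate library 1, 21 with the IgG reference, 23 with all 4 high-flow libraries as the reference and 26 with the single 100 bp clodronate library, at a median of 2.61 in the last. Pcna, the sliding clamp of replication, had 73.3 and 302 FPKM against 38.0 and 72.7 FPKM (log2 fold-change 1.79 ± 0.57, edgeR adjusted p = 0.0809). None of the 12 proline, serine and one-carbon genes was called by edgeR, at a median of 1.80 and with 8 at an unadjusted p under 0.05, whereas DESeq2 called 6. edgeR called 8 without clodronate library 1, 11 with the IgG reference, 10 with all 4 high-flow libraries and 11 with the single 100 bp clodronate library, all higher.

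**Figure D3:**
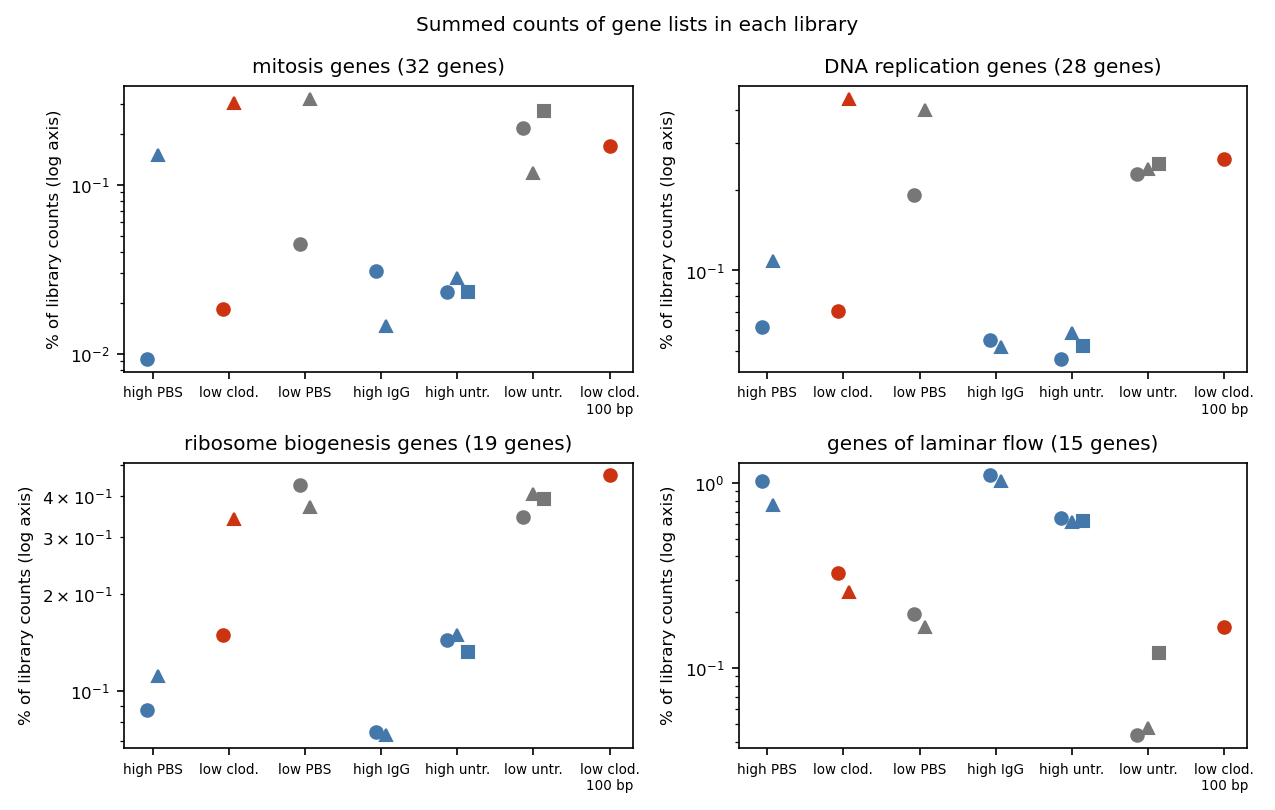
Share of all gene counts taken by 4 gene lists in each library, in percent on a log axis, with 1 point per library. Mitosis genes took 0.0183% and 0.306% in the 2 clodronate libraries and 0.00931% and 0.151% in the 2 high-flow libraries with PBS liposomes, while genes of laminar flow were lower in both clodronate libraries than in both high-flow libraries.

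The effect of clodronate at low flow was tested between the 2 groups of low-flow libraries, which share flow and sequencing run. Without a high-flow clodronate library, an effect of clodronate that is the same at both flows cannot be told apart from a changed flow response. edgeR called 16 of 13401 genes, 0.119%, all of them lower with clodronate in this fit, and 2002 had an unadjusted p under 0.05. They include receptors and enzymes of myeloid cells. Pla2g7, the acetylhydrolase of platelet-activating factor, had 7.03 and 4.83 FPKM with clodronate and 32.6 and 67.2 FPKM with PBS liposomes. Cd14, the co-receptor for lipopolysaccharide, had 5.88 and 3.98 FPKM against 36.0 and 108 FPKM, and its log2 fold-change was −3.97 (edgeR adjusted p = 0.0367). The receptor for the macrophage growth factor, Csf1r, had 1.67 and 1.83 FPKM against 15.3 and 29.5 FPKM, and the integrin beta 2, Itgb2, 3.47 and 4.39 FPKM against 21.4 and 37.2 FPKM. For all 16 genes both clodronate libraries lay below both PBS liposome libraries. Against high flow, 8 of the 16 had groups that did not overlap and 1 was called, near the 51.3% and 7.41% of all genes. The called gene was Treml4, a receptor of myeloid cells, which had 0 and 0.0871 FPKM with clodronate, 1.05 and 4.83 FPKM at high flow and 8.20 and 14.1 FPKM at low flow with PBS liposomes. It thus lay below high flow, and fell by 5.92 on the log2 scale (SE 1.24, edgeR adjusted p = 0.0170). Without clodronate library 1 edgeR called 0 genes, 422 before adjustment, and without PBS liposome library 2 also 0, with 803. The count was 29 without PBS liposome library 1 and 937 without clodronate library 2, of which 471 were higher and 466 lower. DESeq2 called 461, of which 221 were higher and 240 lower, so that the single direction held neither there nor without that library.

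**Figure D4:**
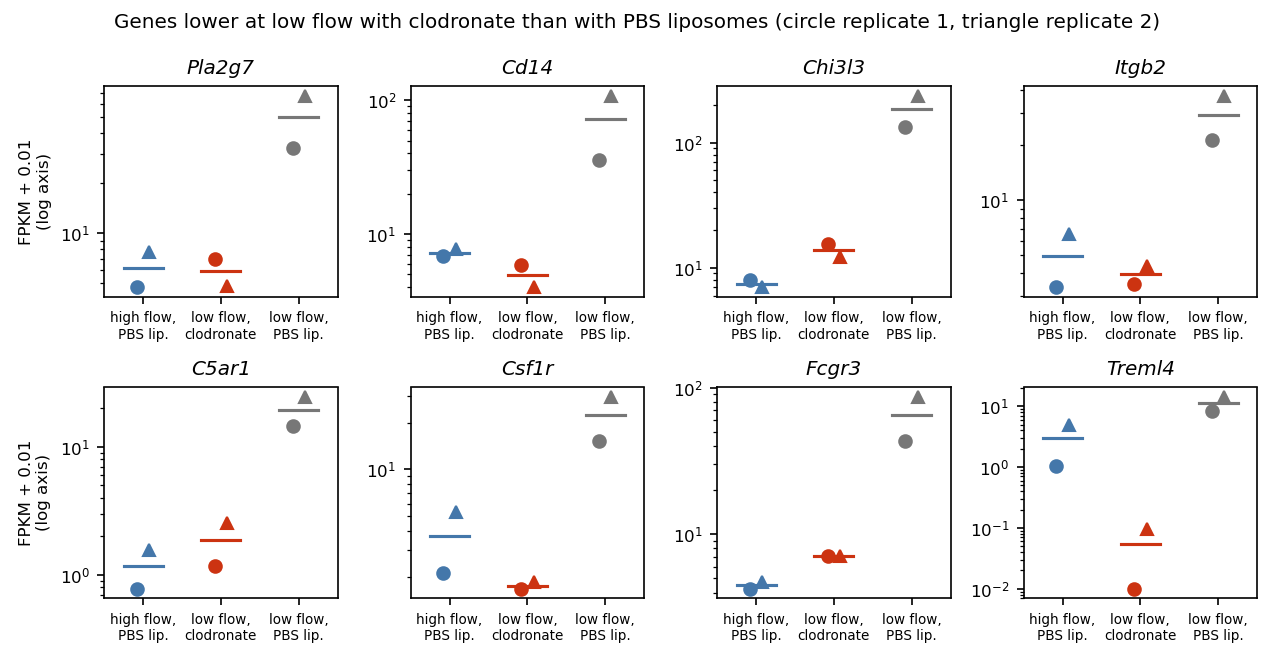
FPKM plus 0.01 of 8 of the 16 genes lower with clodronate than with PBS liposomes at low flow, in each library, on log axes, with a circle for replicate 1, a triangle for replicate 2 and a bar for the mean of 2. Pla2g7 had 7.03 and 4.83 FPKM with clodronate, 4.73 and 7.66 FPKM at high flow and 32.6 and 67.2 FPKM with PBS liposomes.

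Low flow with PBS liposomes gave 4692 called genes (35%) against the same high-flow libraries, 2621 higher (19.6%) and 2071 lower (15.5%), and 1482 without high-flow library 1, 2911 without PBS liposome library 1 and 2172 without PBS liposome library 2. Because the reference is shared, only the values of the single genes are set side by side. The log2 fold-change from high flow was −3.12 for Klf2 with clodronate and −4.0 with PBS liposomes, −2.05 and −3.23 for Klf4, −1.51 and −2.02 for Nos3, and −1.91 and −2.53 for Dhh. It was 4.61 and 7.90 for Angpt2, 4.60 and 5.89 for Ctgf, 3.71 and 5.66 for Ptgs2, and 2.61 and 3.93 for Ccl2. For Hmox1, Emcn and Procr it was 2.54 and 2.84, 2.11 and 2.36, and 2.01 and 2.16. None of these genes was called between the 2 low-flow groups by edgeR, and the difference for Klf2, a log2 value of 0.88, had an adjusted p of 0.423. For these 11 genes the values with clodronate were nearer to 0. They were not for the called genes Cd247 (1.90 with clodronate and 1.63 with PBS liposomes), Bst2 (1.75 and 1.70) and Tra2a (1.28 and 1.08). Treml4 went opposite ways, at −5.92 with clodronate and above both high-flow libraries with PBS liposomes. These genes are examples and not a tally of all called genes. A p that misses the threshold does not show that the 2 treatments act alike.

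Libraries that share no sample with this comparison were used to see how far its genes moved elsewhere. At 48 hr without treatment, 3 low-flow pools were compared with 3 high-flow pools, and edgeR called 5195 of 11236 genes, 46.2%, with 23.6% higher and 22.6% lower. Of the 993 genes, 966 were tested there, 87.1% had the same sign and 58.8% were called the same way, against 69.4% and 37.6% of all 11182 genes tested in both. Called the other way were 24 of the 966, 21 of them higher with clodronate, and 970 of the 11182. The lower genes had the same sign more often, at 96.4% of 366, than the higher genes at 81.3% of 600, a difference that was not tested. The 568 genes called the same way were 11% of the genes called in the untreated pools. Of these, Serpina1b fell by 7.26, Serpina1d by 8.31 and Vipr1 by 4.0 on the log2 scale without treatment, and Il1r2, Spp1, S100a8 and Angpt2 rose by 9.08, 6.19, 6.25 and 7.73.

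A single clodronate library of 100 bp reads, sequenced together with the untreated pools, was set against the 3 untreated high-flow pools, so that flow and sequencing run do not coincide. This library has no replicate and is assumed to vary like the others, and the high-flow pools had no liposomes. edgeR called 2212 of 12618 genes, 17.5%, with 9.18% higher and 8.35% lower. Of the 993 genes, 985 were tested, and 93.5% had the same sign, against 70.3% of all 12271 genes tested in both. Called the same way were 297 (30.2%), against 15.8% of all genes tested in both, and 1 was called the other way. Of the lower genes, 175 of 372 (47.0%) were called the same way, with a median log2 fold-change of −1.22 in the first comparison and −1.01 here. Of the higher genes it was 122 of 613 (19.9%), with medians of 1.57 and 0.74. The difference between the directions was not tested. Pearson's r between both comparisons was 0.870 over the 985 genes, a description only, since genes are not replicates and the set is split by direction. Klf2 had 8.72 FPKM in this library against 59.2, 43.7 and 61.8 FPKM in the untreated high-flow pools (log2 fold-change −2.72, edgeR adjusted p = 0.00451), and Angpt2 34.4 FPKM against 0.705, 1.48 and 1.23 FPKM. Nos3, at 31.0 FPKM against 43.3, 46.6 and 42.9 FPKM, had an adjusted p of 0.172. Macrophage markers took 0.0224% of its counts, and 0.159% in the 100 bp library of low flow with PBS liposomes. Mitosis genes took 0.169% of the counts of this 1 library, between the values of the 2 clodronate libraries of 150 bp. Of the mitosis genes 30 of 32 were called higher and of the DNA replication genes 26 of 28, but the 150 bp clodronate libraries differed from each other by a median of 4.48 over the mitosis genes, and the spread between clodronate libraries does not enter a comparison with 1 such library.

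**Figure D5:**
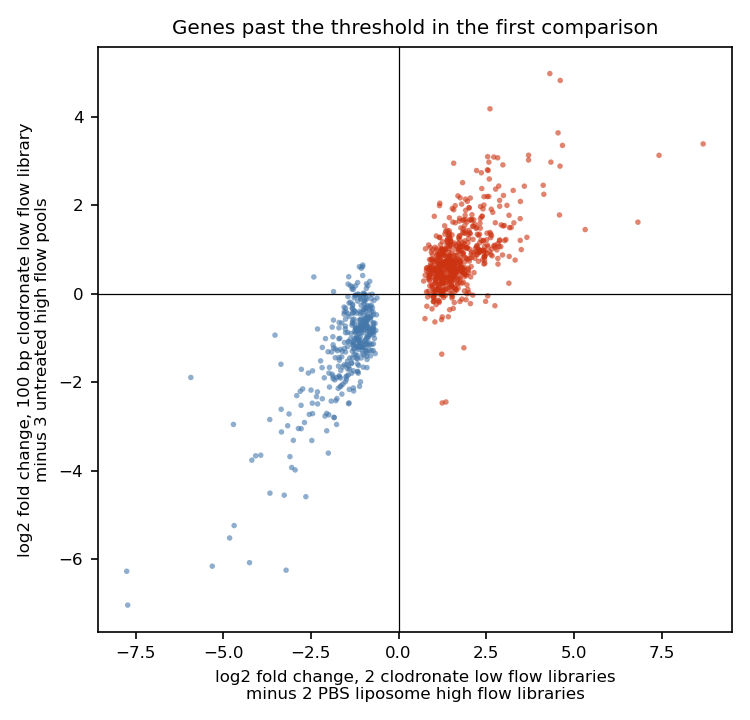
Log2 fold-change of 985 called genes between clodronate low-flow and PBS liposome high-flow libraries (horizontal axis) and between the 100 bp clodronate library and the untreated high-flow pools (vertical axis), with 1 point per gene, red for genes higher and blue for genes lower in the first. Of the points, 93.5% have the same sign on both axes.

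The high-flow reference itself also set the count. Against the 2 high-flow libraries of IgG-treated mice, which the file headers place in the same run as the PBS liposome ones, the clodronate libraries differed in 3796 genes, 28.3% of those tested (15.7% higher and 12.6% lower). These included 901 of the 993, in the same direction. The counts of list members given above for the IgG reference are to be read against those 15.7% and 12.6%. Of the 55 named genes that were called, 51 kept their call, Nr1d2, S100a8 and Treml4 lost it and Tra2a turned its sign.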

How the data were processed

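Each library was a pool of arterial flushes lysed in Trizol. RNA was amplified with a SMARTer low-input kit, and the submitters' processing notes name STAR 2.5.1b and RSEM 1.2.15 with the mm9 genome for every sample. The methods of the study name TopHat for pools of low and high flow without treatment, so which aligner made the values of the 100 bp libraries is not settled here. Strand use in counting is not given in the sources used here. The authors deposited expected counts and effective lengths (in bases) per gene in 1 table for the whole series, of which 179 value columns were not used. Expected counts were rounded to whole numbers. The 1 entry without a gene name, 0.046% to 0.056% of the counts of the 4 libraries, was left out of 21675. FPKM were computed here from the deposited expected counts, effective lengths and library totals. Where a fold-change is given on the log2 scale it comes from the fits to the deposited expected counts, not from deposited log2 values.

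The 7 groups of 2 libraries of 150 bp reads were fitted together with edgeR 4.0.16 in R 4.3.3 (filterByExpr, TMM, quasi-likelihood test, Benjamini-Hochberg adjustment, threshold 0.05, two-sided). DESeq2 1.42.0, other scalings and filters, other references, a replicate block and leaving out each library were alternatives. The untreated pools (3 low flow, 3 high flow) and the 100 bp liposome libraries were fitted apart, using the first of the sequencing runs of each. With 2 against 2 an exact permutation test of 1 value cannot go below p = 0.333. Replicates are separate pools, and the p-values of the joint fit rest on a spread between pools estimated over all 7 groups together. The counts of replicates differed by more than sampling noise. Their chi-square per degree of freedom was 153 for the clodronate libraries and 44.8 for the high-flow libraries. The members and lists were chosen with earlier results of these data known. Named genes were a fixed set of flow, adhesion, leukocyte and proliferation genes, in each direction the 8 called genes of largest log2 fold-change whose groups did not overlap and whose higher group averaged at least 1 FPKM, up to 4 called genes by p of each of 44 lists, or the most abundant member where none was called, the genes called between the low-flow groups, and the 5 per direction with the largest change shared with the untreated pools. Of the 100 genes this gave, 12 that stood for lists without a call were not named, and a few further results are not reported here. On simulated counts for the main comparison with 200 of 12898 genes changed by 2 on the log2 scale, edgeR called 114 of them and 3 others and DESeq2 137 and 19 others. With none changed among 12915 genes, edgeR called 0 and DESeq2 3. The simulation drew every group from the high-flow means, with the same spread for all genes and groups and no difference shared between replicates. These libraries depart from that, so the simulation does not give their rate of false calls.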

Additional observations from a re-analysis of the deposited data

Results flagged for a closer look

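Low-flow intima with clodronate and with PBS liposomes was compared directly, and 16 genes differed between these 2 groups in edgeR. This tests clodronate at low flow, and without a high-flow clodronate library it does not test a difference in flow response. All 16 were lower with clodronate. The log2 differences were −3.18 for Pla2g7, −3.97 for Cd14, −3.85 for Chi3l3, −2.99 for Itgb2, −3.49 for C5ar1, −4.42 for LOC100038947, −2.96 for Ptpn6, −3.30 for Cebpb. For the other 8 they were −3.32 for Napsa, −2.68 for Laptm5, −3.29 for Fcgr3, −3.39 for Fcer1g, −7.96 for Treml4, −3.78 for Csf1r, −2.77 for Pygl, −3.26 for Tgfbi. In the single 100 bp libraries, with clodronate and with PBS liposomes, all 16 were again lower with clodronate, and the ratio of PBS liposomes to clodronate had a median of 11.5 and ran from 3.39 for Cebpb to 141 for Treml4, both of which rest on 1 count with clodronate. With 1 library on each side and the spread taken from the replicated pools, edgeR called 1 gene of all those tested there.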

How the results depend on the processing

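In the comparisons of 150 bp libraries each side has 2 pools, and single libraries carry much of the counts, whereas the untreated count of 5195 ran from 4151 to 5411 without each of its 6 pools. Against high flow, leaving out each replicate in turn moved the 993 called genes between 76 and 1724. edgeR on the 4 libraries alone called 0 genes, where 2 residual degrees of freedom remain, DESeq2 in the joint fit called 1977, the reference of 4 high-flow libraries gave 3218, the IgG reference 3796 and the 100 bp libraries 2212. Between the low-flow groups, 16 genes became 461 with DESeq2, 379 with DESeq2 and 0 with edgeR on the 4 libraries alone, 92 with no filter on low counts, 1 in the 100 bp libraries, and 0 to 937 without each replicate. With PBS liposomes the count against high flow was 1482 to 3839 without each replicate. With the same 2 residual degrees of freedom, edgeR on the 4 PBS liposome libraries alone called 5293 genes between low and high flow. In the untreated pools, requiring a log2 fold-change of at least 1 left 3448 of 5195. Apart from the block below, all other alternatives run on these counts stayed within 1.5 times of the value reported. With the replicate number as a block, which the labels do not tie to a shared animal or day, the called genes were 1380 against high flow and 64 between the low-flow groups, 5101 with PBS liposomes against high flow, and the replicate differences correlated at 0.442 and 0.419 over the 2 pairs of groups. The comparisons with the 100 bp libraries were chosen after the data were seen.

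Of the 55 named genes that were called, all kept direction and call with DESeq2 in the joint fit, with no filter and with the replicate block, and all 53 tested were lost by edgeR on the 4 libraries alone. Klf4 lost its call with the DESeq2 size factors. Among the named genes the log2 fold-change turned sign with the IgG reference for Emr1 (−0.44), Fn1 (−1.90), LOC100038947 (1.46), Pla2g7 (0.69), Ptpn6 (0.33), Rbfox2 (−0.16) and Tra2a (−0.23), with 4 high-flow libraries for Emr1 (−0.20), Fn1 (−0.91), LOC100038947 (0.67), Pla2g7 (0.31) and Ptpn6 (0.049), and in the 100 bp libraries for Col5a2 (0.92), Fcgr3 (−0.18), Icam1 (−0.024), Itgb2 (0.85), LOC100038947 (1.96) and Ptpn6 (1.68). Of these Fn1 passed the threshold with the IgG reference. Leaving out a replicate turned 18 values of 14 genes that were not called, none past the threshold, and the values without each replicate ran from −0.87 to 0.23 for Col5a2, −0.46 to 0.82 for Emr1, −0.35 to 0.68 for Fn1, −0.11 to 0.88 for Itgam, −0.71 to 0.23 for Itgb2, −0.95 to 0.51 for LOC100038947, −2.47 to 5.18 for Mki67, −0.35 to 0.32 for Pla2g7, −0.56 to 0.21 for Ptpn6, −0.16 to 0.81 for Ptprc, −0.075 to 0.87 for Rbfox2, −0.014 to 1.27 for Tgfbi, −2.50 to 5.95 for Ube2c and −0.024 to 0.74 for Vcam1. The cause was not tested.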
